A study of Mus musculus with 232 samples.

Results

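A set of 10 genes that are typical of pluripotent cells and of the germline was followed across single mouse embryonic stem cells (ESCs): Dppa2, Dppa3, Dppa4, Dppa5a, Utf1, Gdf3, Tex19.1, Mael, Dazl and Tcl1. The genes were chosen by name, and all 10 were found by their identifiers among the 42493 genes listed for each cell. Averaged over all cells, 11178 genes had 5 or more counts, among them 9 of the 10, and Mael did not. Cells carrying a deletion of Dgcr8 (Dgcr8-/-) lack a protein needed to process most microRNAs (miRNAs). These cells received a mock transfection, a mimic of miR-294 or a mimic of let-7, and wild-type cells (WT, titled V6.5 and labelled as wild type) were the reference. All 4 conditions were grown with serum, LIF and the inhibitors PD0325901 and CHIR99021, went through Dharmafect 1 transfection by the labels and were captured on a Fluidigm C1 device 24 h later. The let-7 mimic is called let-7i in the sample titles, let-7b in the series description and let-7c in the methods of the study, and is called let-7 here. Deposited were 232 sequencing runs of 182 cells, of which 178 were used as separate cells: 16 WT, 60 mock Dgcr8-/-, 45 let-7 and 57 miR-294 cells. Of the 57 miR-294 cells, 3 carry titles that start with MIR_294 where the others have miRNA294, and they were kept because their genotype label is the same. Without these 3 cells the calls of the 10 genes given below were the same except that of Dazl between miR-294 and WT cells. Each condition came from 1 C1 circuit and the labels name no separate cultures, so that each condition counts as 1 sample and circuit, culture and condition cannot be told apart.

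Dppa2 and Dppa4 encode a pair of related chromatin proteins with SAP domains, and Utf1 encodes a chromatin protein that binds genes with bivalent histone marks. Dppa5a encodes an RNA-binding KH-domain protein, Gdf3 a ligand of the TGF-beta family that acts with Nodal, and Tcl1 a coactivator of the kinase Akt. Dppa3 (also called Stella or PGC7) protects maternal methylation marks in the zygote, Dazl encodes an RNA-binding protein of germ cells, Mael a protein of the piRNA pathway, and Tex19.1 a protein that limits retrotransposons in the germline and placenta. Several of these genes are on in only part of the cells of an ESC culture, which is why they are read cell by cell here.

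The mimics recognize messages through the seed, bases 2 to 8 of the miRNA. The mature sequences are given from RefSeq (GRCm38.p6) with the seed in capitals, since the search of the 10 genes rests on it.
mmu-miR-294-3p: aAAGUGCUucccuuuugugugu
mmu-let-7b-5p: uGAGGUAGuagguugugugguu
mmu-let-7c-5p: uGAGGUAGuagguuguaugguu
mmu-let-7i-5p: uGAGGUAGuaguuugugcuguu
The 3 let-7 names thus share 1 seed, GAGGUAG, and any search by seed is the same for each of them. The site of miR-294, AGCACTT, is in the annotated 3′ untranslated regions of 0 of the 10 genes, and in those of 14.9% of 21877 protein-coding genes. The let-7 site, CTACCTC, is in the 3′ untranslated region of 1 of the 10, Gdf3, and of 9.14% of the protein-coding genes. Both sites were searched on the sense strand. In Gdf3 the match starts 272 bases after the stop codon, within an untranslated region of 903 bases, at chr6:122606028-122606034 (minus strand, GRCm38). It is shown with its flanks, the match in capitals.
Gdf3 let-7 match: attctctttcctCTACCTCctgtgtgctgg
These untranslated regions are short in most of the set, from 122 bases in Utf1 to 1854 bases in Dazl.

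Several of the genes lie close together. Dppa4 (chr16:48283733-48294237) and Dppa2 (chr16:48303908-48319723) are on the same strand with a gap of 9671 bases, and no protein-coding gene is annotated between them. Gdf3 (chr6:122605403-122610087) and Dppa3 (chr6:122626410-122630272) are 16323 bases apart on opposite strands, and Nanog follows Dppa3 after 77217 bases. The others are on chromosome 7 (Utf1), 9 (Dppa5a), 11 (Tex19.1), 1 (Mael), 17 (Dazl) and 12 (Tcl1). Sequence shared with copies elsewhere limits some counts. Of the distinct 31-base words in the transcripts, 57.2% were shared with other genes for Dppa5a, 40.1% for Dppa4, 33.8% for Dppa2 and 29.6% for Dppa3, so that these 4 genes are the least certain of the set. The share was 6.31% for Tex19.1, all of it with Tex19.2, and 2.97% for Gdf3, while Utf1, Mael, Dazl and Tcl1 shared none. Adding the counts of the main sharing genes, each with at least 50 shared words, moved no ratio across 2-fold. Not all sharing genes were added. For Dppa5a they were Pigp, Gm6083 and Gm15310, without Dppa5b and Dppa5c, and for Dppa2 Gm9298 was not among them.

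Totals ran from 513521 to 3979274 counts per cell, with medians of 1307481 (WT), 1574732 (mock), 1521869 (let-7) and 1430739 (miR-294). The reads carried no molecular identifiers, so that the intervals of ratios below cover counting error only. Those of shares of cells are exact binomial intervals that treat the cells of 1 sample as independent draws. In 4 pairs of neighbouring titles (3 let-7, 1 miR-294) the 2 cells differed by no more than re-sequenced libraries do, and each pair was averaged and counted as 1 cell. In 2 cells (1 let-7, 1 WT) the 2 runs of the cell did not match each other (r = 0.490 and 0.504, against at least 0.970 in the other 48 re-sequenced cells), and leaving both out changed no call of the 10 genes. ESC markers Pou5f1, Sox2, Nanog, Zfp42, Esrrb, Klf4, Sall4 and Tfcp2l1 were counted in every condition. Between let-7 and mock cells 2 of these 8 were lower past 2-fold, against 9.25% of the genes averaging 5 or more counts. They were Nanog (ratio 0.34) and Sall4 (0.22), and the other 6 were between 0.54 (Tfcp2l1) and 0.80 (Klf4). Nanog and Sall4 were also lower in let-7 than in miR-294 cells (7.72% of those genes). Pou5f1 was higher (32%) and Esrrb lower (9.86%) in mock than in WT cells, and Pou5f1 was higher in miR-294 than in WT cells (24.1%). None of the 8 passed 2-fold between miR-294 and mock cells. Of fibroblast and primitive endoderm markers, Col1a2, Col3a1, Lum, Gata6 and Sox17 had a count of 0 in all 4 conditions. Any of the 5 fibroblast markers was counted in 1 WT, 4 mock, 2 let-7 and 4 miR-294 cells (Col1a1 or Thy1), at a summed level of at most 32.4. Any primitive endoderm marker was counted in 0 WT, 1 mock, 10 let-7 and 6 miR-294 cells, mostly Gata4. The summed level of 4 trophoblast markers had a median of 34.9 in WT, 6.86 in mock, 6.41 in let-7 and 6.5 in miR-294 cells, and that of 6 markers of early differentiation a median of 0 in the 3 Dgcr8-/- conditions. Any of these 6 was still counted in 8 WT, 28 mock, 22 let-7 and 18 miR-294 cells, with the highest summed level, 483, in a mock cell. The part of these cells in the results was not tested. Dgcr8 itself was at a level of 155 in WT, 52.5 in mock, 49.8 in let-7 and 60 in miR-294 cells, and counts per whole gene cannot show the deleted part. A single WT cell held 52.5% of the Dgcr8 count in WT cells, and without it the ratio to WT was 0.61 in mock and 0.70 in miR-294 cells, against 0.34 and 0.39 with it.

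The level of a gene in a condition is its summed count over the summed DESeq size factors of the cells, that is, a normalized count per cell. It is compared between conditions and not between genes. A gene was called where the ratio of 2 levels passed 2-fold. No test was made, because cells are not replicates of a condition. Instead, the same call over the genes that averaged 5 or more counts is given as the background, which does not include Mael. Of the 10 genes, 6 stayed within 2-fold of mock cells after miR-294 and 6 after let-7. Between miR-294 and mock cells, 4 of the 10 genes passed 2-fold, against a background of 26% in either direction. Utf1, Tex19.1 and Tcl1 were higher after miR-294, against 6.20% of all genes, and Mael was lower, against 19.8% of all genes. Between let-7 and mock cells, again 4 passed (background 27.6%). Tex19.1, Dazl and Mael were higher after let-7 (background 18.3%), and Tcl1 was lower (background 9.25%). Both comparisons use the same mock cells. Between mock and WT cells, 5 passed. Utf1 and Mael were higher in mock cells (background 32%), while Dppa3, Dazl and Tcl1 were lower (background 9.86%). Between let-7 and miR-294 cells, 4 passed (background 39.5%), with Dazl and Mael higher after let-7 (background 31.7%) and Utf1 and Tcl1 lower (background 7.72%). Between miR-294 and WT cells, 4 passed (background 37.6%), with Utf1 and Tex19.1 higher (background 24.1%) and Dppa3 and Dazl lower (background 13.5%). Of the 9 genes on the same footing as the background, without Mael, 3 were higher and 0 lower between miR-294 and mock cells. For let-7 against mock cells the numbers were 2 and 1, for mock against WT 1 and 3, for let-7 against miR-294 1 and 2, and for miR-294 against WT 2 and 2. With 16 WT cells, 41.8% of all genes passed 2-fold between mock and WT cells, so that a 2-fold ratio there is common. Because counts of some genes are concentrated in a few cells, each cell of either condition was also left out in turn. Of the 21 calls, 10 ended in this way, and 3 of those turned direction (both of Dppa3 and 1 of Mael). The 11 that did not were all 4 of Utf1, 3 of Tcl1, both of Tex19.1 that involve miR-294 cells, Dazl between let-7 and mock cells and Mael between let-7 and miR-294 cells.

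The centre of all genes was not at 0. The median log2 ratio of all genes was -0.26 for miR-294 against mock, 0.18 for let-7 against mock, 0.36 for mock against WT, 0.45 for let-7 against miR-294 and 0.09 for miR-294 against WT. The medians over the 9 genes of the set that averaged 5 or more counts were -0.02, -0.24, -0.04, -0.14 and -0.12 in the same order. By size factors, 692 of all genes were higher and 2206 lower after miR-294 than in mock cells, and by total counts 926 and 1720. Between let-7 and miR-294 cells, 3546 were higher and 863 lower by size factors, and 2753 and 1269 by total counts. By total counts the calls of the 10 genes were the same except that Dazl no longer passed 2-fold between let-7 and miR-294 cells.

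**Figure D1:**
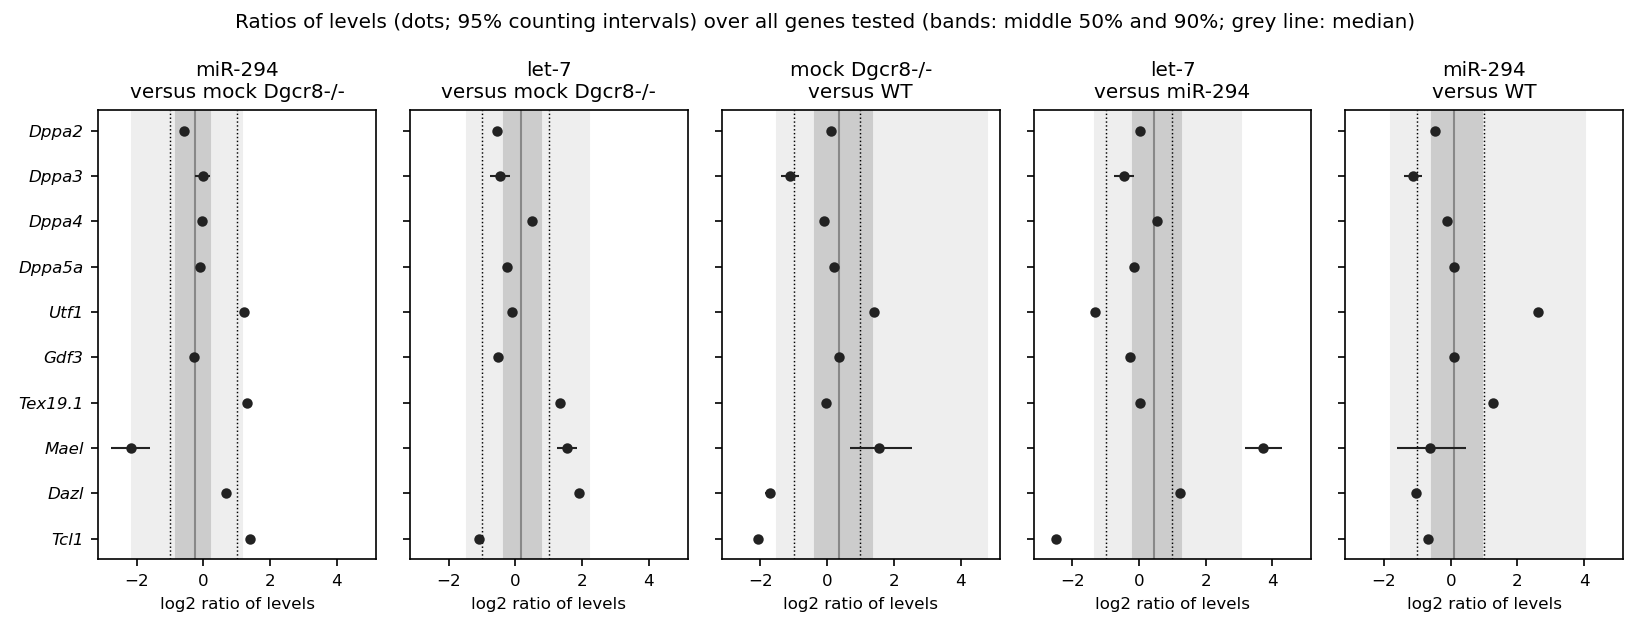
The log2 ratio of levels (x axis) of each of the 10 genes (dots, with 95% counting intervals, which are mostly smaller than the dot) in 5 comparisons; bands show the middle 50% and 90% of the genes averaging 5 or more counts, the grey line their median, and dotted lines 2-fold. Tcl1 lies far to the left in let-7 against miR-294 (-2.49) and in mock against WT (-2.07), and Utf1 far to the right in miR-294 against WT (2.63).

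Among the 3 chromatin genes, Utf1 differed most between conditions. In WT cells its normalized count per cell ran from 0 to 88.9 with a median of 23.2. In mock cells it ran from 0 to 261 with a median of 53.4, and in let-7 cells from 0 to 362 with a median of 40.2. In miR-294 cells it ran from 0 to 504 with a median of 147. The ranges of single cells overlapped in all conditions, but the middle 50% of miR-294 cells (79.3 to 252) lay above that of WT cells (5.92 to 33). The level of Utf1 was 162 in miR-294 cells against 69.8 in mock cells, a ratio of 2.32 (95% counting interval 2.24 to 2.40), and 50 of 57 miR-294 cells were above the mock median. Against WT cells the ratio was 6.18 (5.65 to 6.79), and 54 of 57 miR-294 cells were above the WT median. Mock cells were 2.67-fold (2.43 to 2.93) above WT cells. Let-7 and mock cells did not differ by 2-fold (ratio 0.94, interval 0.89 to 0.98). Utf1 was therefore highest in miR-294 cells and lowest in WT cells, with mock and let-7 cells between them in no firm order. The ratio of let-7 to mock was 1.00 as a ratio of means over cells and 1.05 with the first run of each cell. The quartile ranges of mock (9.83 to 107) and let-7 cells (4.91 to 98.4) overlapped. Of miR-294 cells, 96.5% had a count of Utf1 (exact binomial interval 87.9% to 99.6%), against 83.3% of mock (71.5% to 91.7%), 86.7% of let-7 (73.2% to 94.9%) and 81.3% of WT cells (54.4% to 96%).

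Dppa2 and Dppa4 stayed within 2-fold in all 5 comparisons. Dppa2 ran from 0.90 to 650 in WT cells (median 218), from 0 to 1652 in mock cells (median 305), from 0 to 614 in let-7 cells (median 184) and from 0 to 1261 in miR-294 cells (median 193). Its ratio to mock cells was 0.67 (0.66 to 0.69) after miR-294 and 0.69 (0.67 to 0.70) after let-7, and the quartile ranges overlapped in both. Dppa4 ran from 0 to 579 in WT cells (median 229), from 0 to 822 in mock cells (median 221), from 0 to 1280 in let-7 cells (median 294) and from 0 to 721 in miR-294 cells (median 204). Its ratio to mock cells was 1.43 (1.40 to 1.46) after let-7 and 0.97 (0.95 to 0.99) after miR-294. After let-7, the levels of these neighbouring genes thus lay on opposite sides of mock, Dppa2 below and Dppa4 above. Over single cells their Spearman correlation was 0.15 in mock, 0.21 in let-7 and 0.06 in miR-294 cells. Both were counted in nearly every cell, Dppa2 in 174 of 178 cells.

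Dppa5a had by far the highest values of the set per transcript length. Its mean FPKM was 4197 in WT, 4417 in mock, 3337 in let-7 and 4764 in miR-294 cells, and the next gene, Gdf3 or Dppa4, was between 146 and 208. Dppa5a was counted in every cell, with medians of 2559 (WT), 3006 (mock), 2723 (let-7) and 2666 (miR-294) normalized counts. Its ratios were between 0.85 (let-7 against mock) and 1.15 (mock against WT). It was also the most even of the set over cells, with a coefficient of variation of 0.40 in WT, 0.41 in mock, 0.51 in let-7 and 0.41 in miR-294 cells. The 16 to 33 genes of a like level had median coefficients of 0.34, 0.50, 0.54 and 0.31 in the same order. Dppa5a was thus less even than such genes in WT and miR-294 cells. The lowest cells were 924 in WT, 129 in mock, 344 in let-7 and 1422 in miR-294 cells.

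Gdf3, the ligand and the only one of the 10 with a let-7 seed match, ran from 66.1 to 1000 in WT cells (median 458) and from 0 to 2068 in mock cells (median 557). In let-7 cells it ran from 0 to 1645 (median 379), and in miR-294 cells from 0 to 1285 (median 557). Its level was 435 in let-7 cells and 627 in mock cells, a ratio of 0.69 (0.68 to 0.71) that did not pass 2-fold, and 11 of 45 let-7 cells were above the mock median. Of all genes, 18.4% had a lower ratio in this comparison. Of the 1161 genes with a let-7 match that averaged 5 or more counts, 30.8% had a lower ratio than Gdf3, and their median log2 ratio was -0.04, against 0.19 for 9200 genes without a match and -0.53 for Gdf3. After miR-294 the ratio of Gdf3 was 0.83 (0.82 to 0.84). The spread of Gdf3 over cells was smallest in miR-294 cells, with a coefficient of variation of 0.51, against 0.66 in mock and 0.81 in let-7 cells. Genes of a like level had median coefficients of 0.53, 0.66 and 0.78 in the same order.

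Tcl1, the Akt coactivator, passed 2-fold in 4 of the 5 comparisons, as Utf1 did. In WT cells it ran from 0 to 815 with a median of 214, and in miR-294 cells from 0 to 784 with a median of 188. In mock cells it ran from 0 to 616 with a median of 11.8, and in let-7 cells from 0 to 492 with a median of 0. WT and miR-294 cells were mostly high, mock cells were split between cells with and without counts, and most let-7 cells had none. A count was present in 93.8% of WT (69.8% to 99.8%), 89.5% of miR-294 (78.5% to 96%), 58.3% of mock (44.9% to 70.9%) and 33.3% of let-7 cells (20% to 49%). The shares were 93.8%, 88.9%, 57.1% and 31.7% when each cell was thinned to 500000 counts. The level was 368 in WT, 230 in miR-294, 87.5 in mock and 41 in let-7 cells. The ratio to mock cells was 2.62 (2.55 to 2.70) after miR-294 and 0.47 (0.44 to 0.49) after let-7, and the latter was 0.51 without 1 mock cell, just within 2-fold. Mock cells were at 0.24 (0.23 to 0.25) of WT cells, and let-7 cells at 0.18 (0.17 to 0.19) of miR-294 cells, and in both of these the middle 50% of cells did not overlap. Only 2 of 45 let-7 cells were above the median of miR-294 cells. Between miR-294 and WT cells the ratio was 0.62 (0.61 to 0.64), and the quartile ranges overlapped. Among cells with a count, the median was 221 in WT, 270 in miR-294, 111 in mock and 69.5 in let-7 cells, so that the number of cells with a count and the amount in those cells were both lower in mock and let-7 cells.

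**Figure D2:**
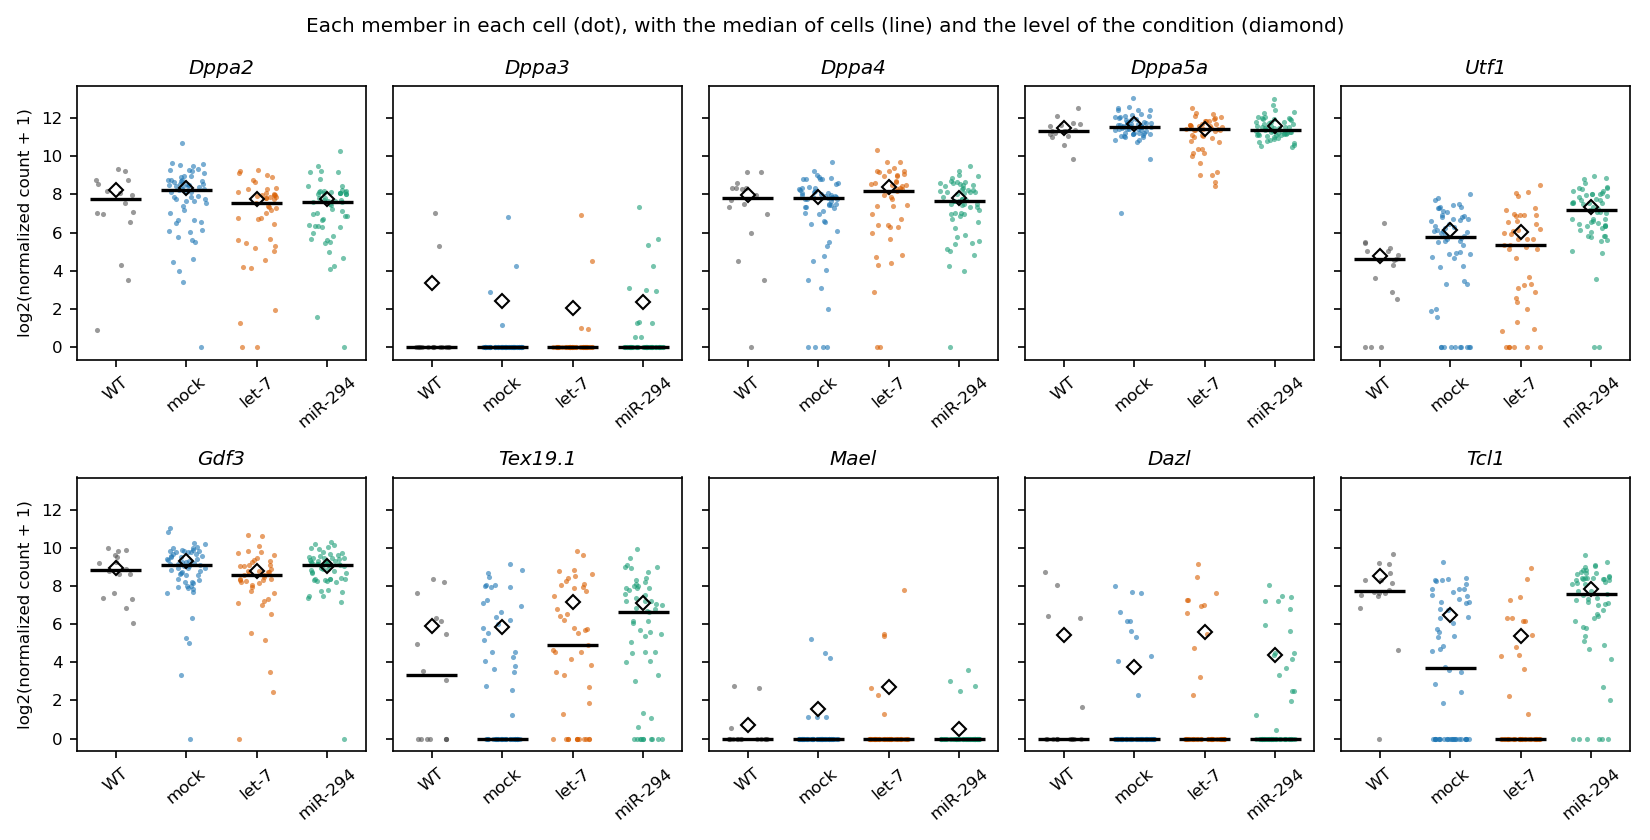
The normalized count, as log2(normalized count + 1), of each gene in each of 178 cells by condition (dots), with the median of cells (line) and the level of the condition (open diamond). Utf1 and Tcl1 medians are highest in miR-294 cells and in WT cells respectively, Dppa5a is even, and most cells are at 0 for Dppa3, Mael and Dazl.

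Of the 4 germline genes, Tex19.1 was the most often counted. Its median was 9.09 in WT (range 0 to 334), 0 in mock (0 to 568), 28.9 in let-7 (0 to 897) and 99.4 in miR-294 cells (0 to 974). The level was 57.8 in WT and 56.1 in mock cells, and 142 in let-7 and 139 in miR-294 cells. After miR-294 the ratio to mock was 2.48 (2.39 to 2.57), and between 2.30 and 2.81 when each cell was left out in turn. After let-7 it was 2.54 (2.44 to 2.64), but a single let-7 cell held 32% of the count. Without that cell the ratio was 1.83 and no longer past 2-fold, and the ratio of the means over cells was 2.03. The ratio of let-7 to miR-294 was 1.02 (0.99 to 1.06), and 0.74 without the same let-7 cell. That of mock to WT was 0.97 (0.91 to 1.04), and between 0.86 and 1.27 when each cell was left out in turn. Cells with a count made up 48.3% of mock cells (35.2% to 61.6%), 56.3% of WT (29.9% to 80.2%), 73.3% of let-7 (58.1% to 85.4%) and 82.5% of miR-294 cells (70.1% to 91.3%). Its relative Tex19.2, which shares sequence with it, had summed counts of 0 in WT, 5 in mock, 0 in let-7 and 152 in miR-294 cells, the last in 7 cells.

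Dazl was counted in 5 of 16 WT cells, 11 of 60 mock cells, 12 of 45 let-7 cells and 19 of 57 miR-294 cells, and its median was 0 in every condition. The intervals of these shares overlapped (11% to 58.7%, 9.52% to 30.4%, 14.6% to 41.9% and 21.4% to 47.1%). Its level was 41.5 in WT, 12.6 in mock, 47.1 in let-7 and 20.1 in miR-294 cells, an order that differed from that of the shares. The highest cell was 421 in WT, 253 in mock, 565 in let-7 and 267 in miR-294 cells. The let-7 cell with the largest share of the Tex19.1 count also held 42.3% of the Dazl count in let-7 cells, although another let-7 cell had the highest normalized count. The ratio of let-7 to mock was 3.73 (3.45 to 4.04), and 2.28 without that cell. It was 2.41 as a ratio of means over cells, 2.38 with the first run of each cell and 2.08 by FPKM. Mock cells were at 0.30 (0.28 to 0.33) of WT cells, and at 0.56 without 1 WT cell, which held 47.9% of the WT count. Between miR-294 and WT cells the ratio was 0.48 (0.44 to 0.53). It was 0.89 without the same WT cell and 0.503 without the 3 cells of the other title form, no longer past 2-fold in either case. Between let-7 and miR-294 cells it was 2.34 (2.19 to 2.50), and it was within 2-fold both without the let-7 cell just named (1.43) and with the first run of each cell (1.52).

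Dppa3 and Mael were rare, and their levels rested on a few cells. Dppa3 was counted in 2 of 16 WT, 4 of 60 mock, 4 of 45 let-7 and 12 of 57 miR-294 cells. Those shares were 12.5% (1.55% to 38.3%), 6.67% (1.85% to 16.2%), 8.89% (2.48% to 21.2%) and 21.1% (11.4% to 33.9%). A single cell held 80.7% of the summed count in WT, 87.3% in mock, 87.5% in let-7 and 52.2% in miR-294 cells. The level was 9.24, 4.27, 3.10 and 4.2 in this order. The ratio of mock to WT was 0.46 (0.38 to 0.56), and 0.30 without the highest cells of both conditions. Without the highest WT cell alone it turned to 2.26. That of miR-294 to WT was 0.45 (0.38 to 0.55), and it turned to 1.08 without the highest cells, and to 2.22 without the highest WT cell alone. That of miR-294 to mock was 0.98 (0.84 to 1.16), and it was 3.64 without the highest cells. Between let-7 and miR-294 cells it was 0.74 (0.60 to 0.90), and 0.19 without the highest cells. Mael was counted in 3 of 16 WT, 6 of 60 mock, 6 of 45 let-7 and 4 of 57 miR-294 cells, with summed counts of 12, 133, 258 and 32. Its highest cell held 74.8% of the count in let-7 cells. The ratio of let-7 to mock was 2.93 (2.37 to 3.64), and it turned to 0.75 without that cell. That of mock to WT was 2.92 (1.62 to 5.80), and 1.22 without 1 mock cell. The ratio of miR-294 to mock was 0.22 (0.15 to 0.33), and at 0.53 it was within 2-fold without the same mock cell. The ratio of let-7 to miR-294 was 13.2 (9.13 to 19.7), and 3.39 without the highest let-7 cell, from few counts in either case.

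**Figure D3:**
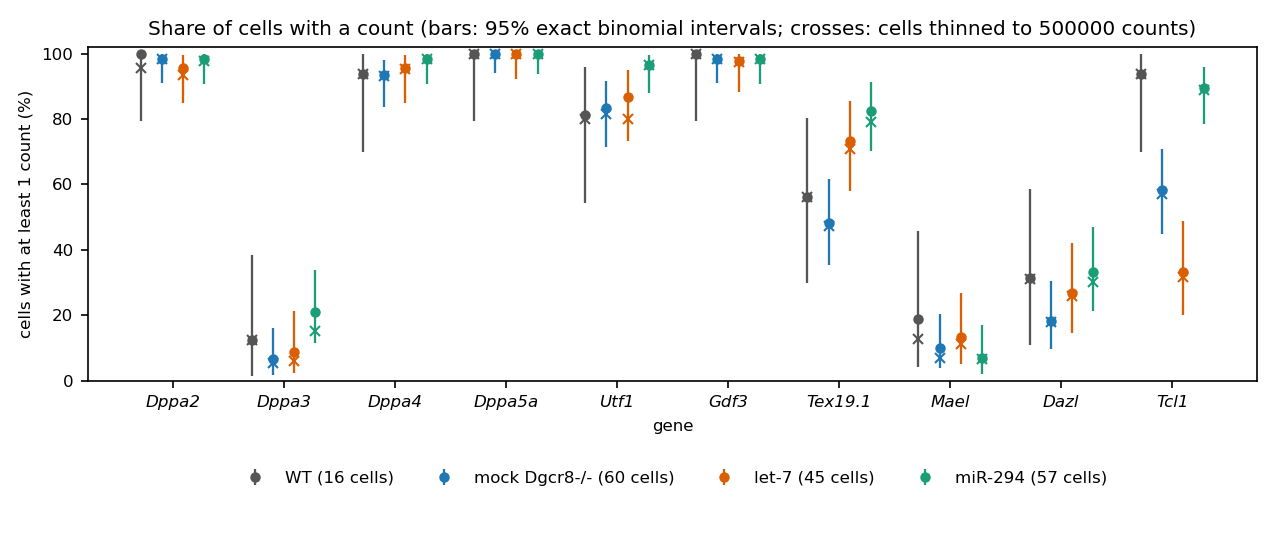
The percentage of cells of each condition with at least 1 count of each gene (dots, with 95% exact binomial intervals that treat the cells of 1 sample as independent draws) and the same after thinning each cell to 500000 counts (crosses). Dppa2, Dppa4, Dppa5a and Gdf3 lie at 93.3% or above in every condition, Tcl1 runs from 33.3% in let-7 to 93.8% in WT cells, and Dppa3 and Mael stay at or below 21.1%.

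The sequencing error of these values was small beside the spread among cells, except for the rarest genes. In the 48 re-sequenced cells whose runs matched, Tex19.1 was counted in both runs of 30 cells, in neither of 17 and in 1 run only of 1 cell. For Dazl the numbers were 8, 38 and 2, and for Tcl1 34, 14 and 0. For Dppa3 they were 6, 38 and 4, and for Mael 4, 43 and 1. A count of Dppa3 was thus often not repeated, and its shares of cells are less certain. Where the 2 runs held at least 20 counts together, the median absolute log2 difference between them was 0.05 for Dppa5a, 0.08 for Gdf3, 0.12 for Dppa2, 0.11 for Dppa4, 0.17 for Utf1, 0.17 for Tex19.1 and 0.15 for Tcl1. These runs share a library, so that they do not cover losses at reverse transcription or amplification.

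The order of the genes by FPKM differed between conditions below Dppa5a. In WT cells Gdf3 (188), Tcl1 (168), Dppa4 (132) and Dppa2 (105) followed. In miR-294 cells the order was Gdf3 (208), Tcl1 (142), Dppa4 (129), Utf1 (116) and Dppa2 (90.7). In mock cells Gdf3 (205), Dppa2 (119) and Dppa4 (108) stood above Tcl1 (46.3) and Utf1 (41.9). In let-7 cells Dppa4 (146) and Gdf3 (137) led, and Tcl1 (17.9) came after Dppa2 (69), Tex19.1 (55.5) and Utf1 (39.8). Dazl, Dppa3 and Mael were last in every condition, at or below 14.3.

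Over the cells of a condition the 10 genes were only weakly correlated by rank. Of 45 pairs, the median Spearman correlation was 0.06 over 60 mock cells, 0.02 over 45 let-7 cells and 0.01 over 57 miR-294 cells. The most positive pair was Dppa4 with Tcl1 in let-7 cells (0.42), a pair at 0.10 in mock and 0.02 in miR-294 cells. The most negative pair was Dppa3 with Gdf3 in miR-294 cells (-0.30). Tcl1 was counted in 33.3% of let-7 cells and Dppa3 in 21.1% of miR-294 cells, so that both values rest on many ties. In let-7 cells Tcl1 (0.37) and Dppa4 (0.23) also correlated with the number of genes counted in the cell. The pair with the highest mean over the 3 conditions was Gdf3 with Mael (0.18), but Mael had no count in most cells, so that this value rests on many ties. Pearson correlations of log2(normalized count + 1) ran wider, from -0.35 (Dppa5a with Tcl1) to 0.55 (Utf1 with Gdf3), both in miR-294 cells. Dppa5a with Gdf3 was at 0.50 by Pearson and -0.08 by Spearman in mock cells. The mock cell lowest for Dppa5a (129) had no count of Gdf3, and 1 miR-294 cell had no count of either Utf1 or Gdf3. The part of such cells in the Pearson values was not tested. Spearman correlations with the 8 ESC markers were as low as those among the 10 genes, with medians of 0.05 in mock, 0.05 in let-7 and -0.04 in miR-294 cells. Their highest mean was that of Dppa4 with Zfp42 (0.26). These are descriptions over cells that share a circuit and a size-factor scaling.

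**Figure D4:**
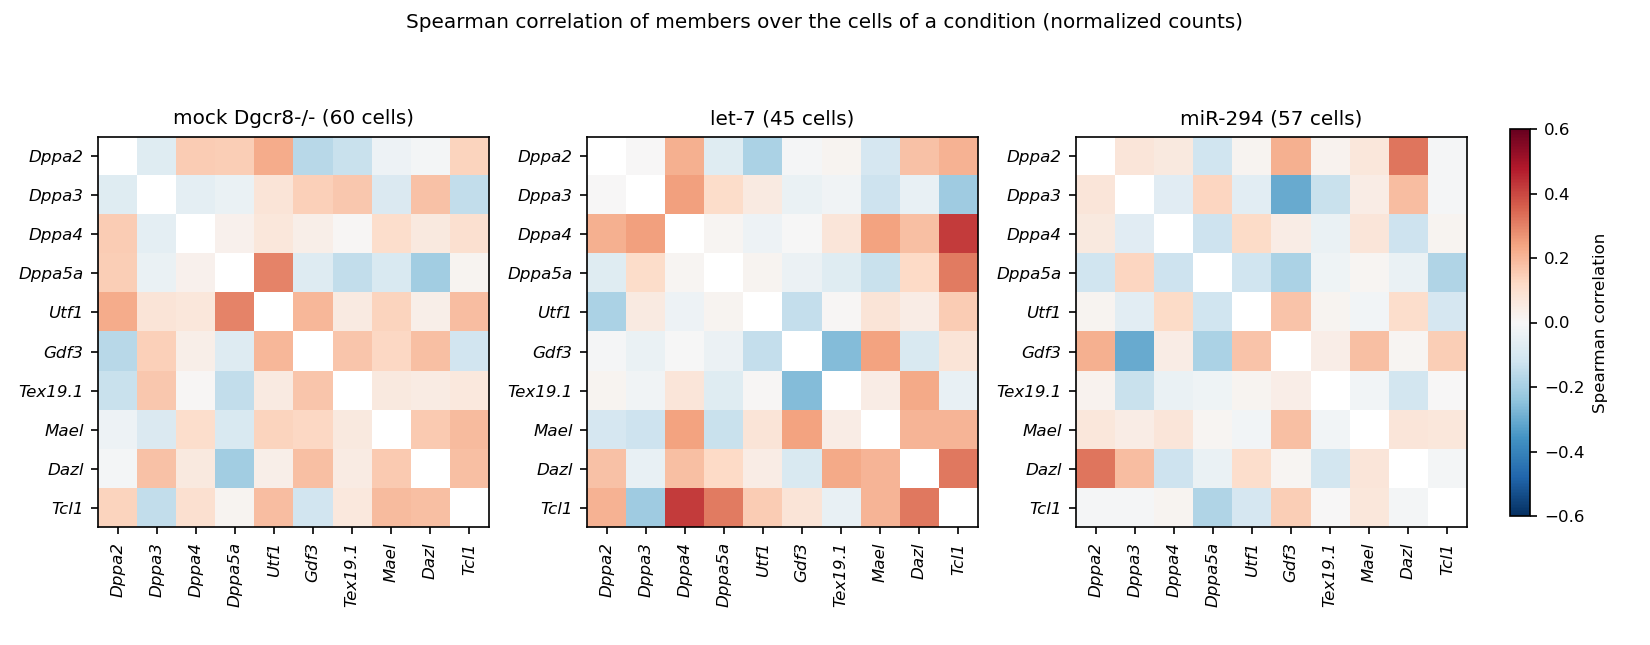
The Spearman correlation of normalized counts between each pair of the 10 genes over the cells of each Dgcr8-/- condition (colour scale from -0.6 to 0.6). Most pairs are pale, and Dppa4 with Tcl1 in let-7 cells (0.42) is the strongest.

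Of the 5 genes counted in at least 50% of the cells of each Dgcr8-/- condition, Dppa5a had the closest neighbours among all genes. Its 3 genes of highest mean Spearman correlation over mock, let-7 and miR-294 cells were Rpl41 (0.57), Gm10123 (0.55) and Mylpf (0.55). For Utf1 they were Aarsd1 (0.37), Sirt6 (0.32) and Id3 (0.31), for Gdf3 Pcolce (0.31), Zfp146 (0.29) and Wnt5b (0.28), for Dppa2 Zfp534 (0.32), Xrcc5 (0.32) and Gm15459 (0.29), and for Dppa4 Nlk (0.33), Zfp512b (0.31) and Tbc1d25 (0.31). They are the top of 11178 genes.

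The number of the 10 genes counted in a cell was lowest in mock and let-7 cells, with medians of 6 in both against 7 in WT and miR-294 cells. At least 1 of Dppa3, Mael and Dazl was counted in 56.3% of WT, 28.3% of mock, 40% of let-7 and 47.4% of miR-294 cells, and all 3 were counted together in 1 cell, a miR-294 cell. Tcl1 and Tex19.1 were both counted in 42 of 57 miR-294 cells, 19 of 60 mock cells, 11 of 45 let-7 cells and 8 of 16 WT cells. Tex19.1 without Tcl1 was the most common pattern in let-7 cells (22 of 45).

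Some cells stood apart. In 3 cells (2 let-7, 1 miR-294) Zscan4c, Zscan4d and Zfp352, which mark cells that resemble the 2-cell embryo, summed to over 10000 normalized counts, while the highest other cell was at 548. The levels of the set in these cells were mixed. Dppa2 was 437 and 614 in the 2 let-7 cells, against a let-7 median of 184, and 604 in the miR-294 cell, against 193. Gdf3 was 34.6 and 91.8 in the let-7 cells, with 3 and 5 of 45 cells lower, and 166 in the miR-294 cell, with 2 of 57 cells lower. Utf1 was 0, 6.40 and 0, and Tcl1 was 0, 19.7 and 0, in the same order. Dazl was counted in all 3, at 565, 25.6 and 109, and the first of these was the highest of its condition. The miR-294 cell was also the highest of its condition for Dppa3 (163). Without the 3 cells the ratio of let-7 to mock for Dazl was 3.19, and Dppa3 passed 2-fold between miR-294 and mock cells (0.48). In 2 other cells (1 mock, 1 let-7) Pou5f1 had no count. The mock cell also had no count of Nanog, Sox2, Gdf3, Utf1 or Tcl1, and its Dppa5a (129) was the lowest of all cells, while its Dppa4 (822) was the highest of mock cells. Leaving out these 2 cells changed no call of the 10 genes.

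**Figure D5:**
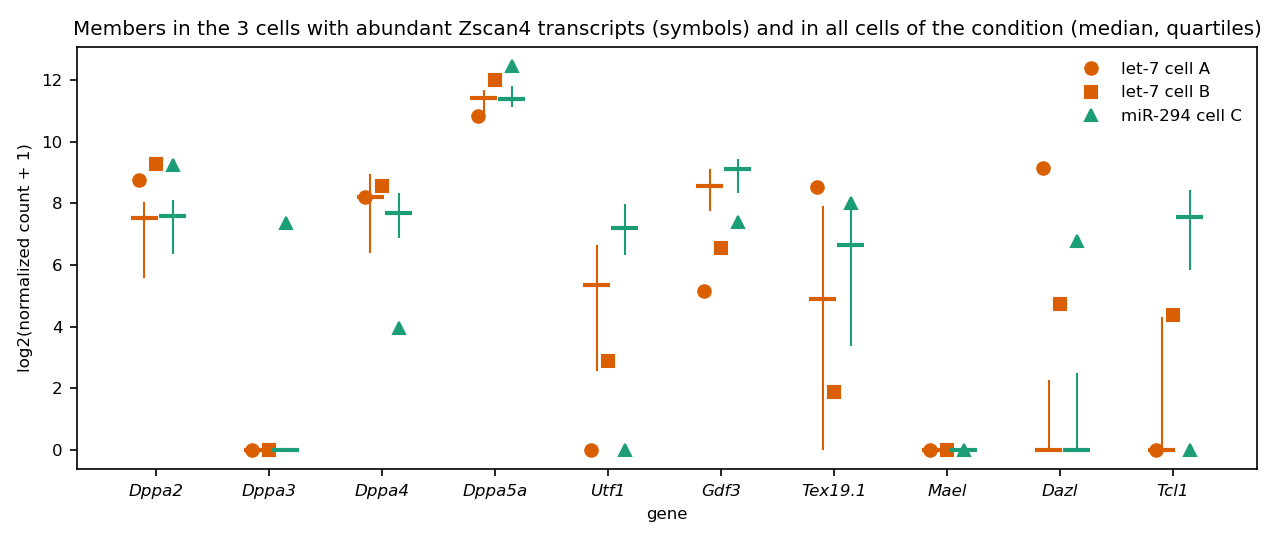
The normalized count, as log2(normalized count + 1), of the 10 genes in the 3 cells with abundant Zscan4 transcripts (symbols), beside the median and quartiles of all cells of the let-7 and miR-294 conditions (lines). Dppa2 and Dazl lie above the medians in all 3 cells, and Gdf3 and Utf1 below.

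Other genes of the germline and of ESCs were read from lists in the same comparisons, with genes averaging 5 or more counts in the tallies and the backgrounds given above. Each cell was again left out in turn. Of 92 ratios of genes in the tallies that passed 2-fold and had at least 100 counts in the higher condition, 33 were no longer past 2-fold in the same direction without 1 cell, and 4 of these turned direction. They are named after each list, with the ratio without the cell that moved it farthest. Germ cell specification, which turns on Prdm1, Prdm14 and Tfap2c, was represented by 7 genes. After miR-294, 0 were higher (background 6.20%) and 3 lower (background 19.8%) than in mock cells. The 3 were Prdm14 (ratio 0.46), Tfap2c (0.48) and Dnd1 (0.42), and the median log2 ratio of the 7 was -0.88 against -0.26 for all genes. After let-7, 1 was higher (background 18.3%), Nanos3 (4.24), and 2 lower (background 9.25%), Prdm14 (0.28) and Kit (0.39). Between mock and WT cells, 4 were higher (background 32%), Prdm1 (7.26), Prdm14 (8.45), Tfap2c (4.69) and Ifitm3 (2.12), and Nanos3 was lower (0.37, background 9.86%). Tfap2c (2.17), Nanos3 (3.68), Dnd1 (3.76) and Ifitm3 (2.01) were higher (background 31.7%) and Kit (0.32) was lower (background 7.72%) in let-7 than in miR-294 cells. Between miR-294 and WT cells, Prdm1 (3.94), Prdm14 (3.92) and Tfap2c (2.26) were higher (background 24.1%), and Nanos3 (0.42) and Dnd1 (0.35) lower (background 13.5%). Of 21 such ratios, 10 fell within 2-fold without 1 cell. They were all 3 between miR-294 and mock cells (Prdm14 0.55, Tfap2c 0.57 and Dnd1 0.64), Nanos3 (0.63) and Ifitm3 (1.95) between mock and WT cells, and Tfap2c (1.56) and Ifitm3 (1.91) between let-7 and miR-294 cells. The others were Tfap2c (1.75), Nanos3 (0.72) and Dnd1 (0.55) between miR-294 and WT cells. The levels of Prdm14 were 88.6 in mock, 41.1 in miR-294, 24.6 in let-7 and 10.5 in WT cells.

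Of 20 genes of the germline, the piRNA pathway or meiosis, 10 entered the tallies. Shared sequence was searched only for the genes of the set, and not for those of the lists. Rpl10l, with a summed count of 16958 in the higher of miR-294 and mock cells, was therefore not checked in this way. After miR-294, 0 were higher (background 6.20%) and 3 lower (background 19.8%) than in mock cells, Sycp3 (0.36), Stk31 (0.28) and Hormad1 (0.34). After let-7, 2 were higher (background 18.3%), Ddx4 (2.17) and Sycp1 (3.61), and Mov10 was lower (0.35, background 9.25%). A single let-7 cell held 67.6% of the Ddx4 count, and without it the ratio turned to 0.72. Between mock and WT cells, 6 were higher (background 32%), Ddx4 (5.52), Sycp3 (2.03), Hormad1 (13.2), Mov10 (7.42), Rpl10l (8.91) and Piwil2. The 2 that were lower (background 9.86%) were Stk31 (0.29) and Tex14 (0.40). Piwil2, a piRNA-binding protein, had 1719 counts in mock and 5 in WT cells. Let-7 against miR-294 cells had 5 higher (background 31.7%), Ddx4 (2.99), Sycp1 (2.89), Sycp3 (2.21), Stk31 (5.67) and Tex14 (3.40), and 0 lower (background 7.72%). Without the same let-7 cell the ratio of Ddx4 was 0.99. Between miR-294 and WT cells, 5 were higher (background 24.1%), Ddx4 (4.0), Hormad1 (4.48), Mov10 (3.87), Rpl10l (8.9) and Piwil2, while Stk31 (0.08) and Tex14 (0.23) were lower (background 13.5%). Besides both ratios of Ddx4, 6 of the 26 ratios fell within 2-fold without 1 cell. They were Sycp3 between miR-294 and mock (0.66), mock and WT (1.11) and let-7 and miR-294 cells (1.49), Sycp1 between let-7 and miR-294 cells (1.82), and Stk31 (0.504) and Tex14 (0.53) between mock and WT cells. Below the minimum mean count, Slc25a31 was 11.4-fold higher in let-7 than in mock cells, and Tdrd9, Brdt, Dpep3 and Tex101 passed 2-fold from sums of at most 202 counts. Of 13 such ratios, 4 lost the call without 1 cell and 3 of these turned direction. Asz1 had no count in any condition.

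Of 11 relatives of the set with an identifier, only Ooep entered the tallies, and its ratios were within 2-fold. Boll, a relative of Dazl, had 288 counts in 8 let-7 cells, 61 counts in 3 mock cells and 8 counts in 2 miR-294 cells. Tcl1b2 had 142 counts in 2 miR-294 cells and 26 counts in 1 let-7 cell. Mtcp1 had 237 counts in 3 let-7 cells and 124 counts in 4 mock cells, a ratio of 2.89, but 98.7% of the let-7 counts were in 1 cell and the ratio turned to 0.04 without it. Tcl1b1, Tcl1b3, Tcl1b4 and Tcl1b5, of the same family as Tcl1, had no count in WT, mock or let-7 cells, although Tcl1 was counted in all 3. In miR-294 cells each of them was counted, with sums of 4 for Tcl1b1, 45 for Tcl1b3 and 5 for Tcl1b5.

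Of 5 neighbours of Dppa3 and Gdf3 on chromosome 6, 0 passed 2-fold between miR-294 and mock cells (background 26%). Nanog was lower (0.34, background 9.25%) and Apobec1 higher (6.59, background 18.3%) in let-7 than in mock cells, while Gdf3 itself stayed within 2-fold. Nanog (0.30) and Slc2a3 (0.39) were lower (background 7.72%), and Apobec1 (7.12) and Foxj2 (2.24) higher (background 31.7%), in let-7 than in miR-294 cells. Slc2a3 was lower (0.44, background 9.86%) and Foxj2 higher (3.6, background 32%) in mock than in WT cells. Foxj2 was 2.92-fold higher in miR-294 than in WT cells (background 24.1%). All 3 ratios of Foxj2 fell within 2-fold without 1 cell, at 1.62 between let-7 and miR-294, 1.74 between mock and WT and 1.42 between miR-294 and WT cells. Apobec1 had 2 counts in WT cells, against 640 in mock and 642 in miR-294 cells.

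Of 11 other transcripts typical of ESCs, 1 was higher after miR-294 than in mock cells (background 6.20%), and 0 were lower (background 19.8%). The higher one was Eras (7.39), which encodes a Ras protein of ESCs. After let-7, 0 were higher (background 18.3%) and 3 lower (background 9.25%), Fbxo15 (0.31), Tdh (0.44) and Eras, which had 1 count in let-7 and 284 in mock cells. Between let-7 and miR-294 cells, 0 were higher (background 31.7%) and 5 lower (background 7.72%), Tdgf1 (0.50), Fbxo15 (0.35), Tdh (0.37), Mybl2 (0.42) and Eras. Zfp296 (2.66) and Pecam1 (5.39) were higher (background 32%) and Eras (0.34) lower (background 9.86%) in mock than in WT cells. Eras (2.54) and Pecam1 (3.24) were higher in miR-294 than in WT cells (background 24.1%). Without 1 cell, Tdgf1 between let-7 and miR-294 cells (0.51) and Eras between mock and WT cells (0.53) fell within 2-fold.

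Genes that act with the set were 14, among them kinases that Tcl1 assists and receptors of the TGF-beta family. After miR-294, 1 was higher (background 6.20%) and 0 lower (19.8%) than in mock cells. After let-7, 2 were higher (18.3%) and 1 lower (9.25%). Between mock and WT cells, 1 was higher (32%) and 3 lower (9.86%). Let-7 against miR-294 cells had 4 higher (31.7%) and 4 lower (7.72%). For miR-294 against WT cells the numbers were 1 (24.1%) and 3 (13.5%). Akt1 stayed within 2-fold in every comparison, while Akt2 was 9.92-fold higher in mock than in WT cells, 7.30-fold higher in miR-294 than in WT cells and 2.24-fold higher in let-7 than in miR-294 cells. Acvr2b was higher after miR-294 than in mock cells (4.0), lower in let-7 than in miR-294 cells (0.27) and lower in mock than in WT cells (0.14). Acvr1b was lower after let-7 than in mock (0.40) or miR-294 cells (0.34), and lower in mock than in WT cells (0.45). Acvr2a was lower in miR-294 than in WT cells (0.47). Smad2, which carries the signal of these receptors, was higher after let-7 than in mock (2.16) and miR-294 cells (2.09). Ubr2, a ubiquitin ligase that binds Tex19.1, was also higher after let-7, at 2.21 against mock and 2.97 against miR-294 cells. Of the DNA methyltransferases, Dnmt3b was lower in mock (0.24) and miR-294 (0.35) than in WT cells and lower in let-7 than in miR-294 cells (0.44). Dnmt3a was 2.36-fold higher in let-7 than in miR-294 cells and lower in miR-294 than in WT cells (0.30). Uhrf1, which recruits Dnmt1, was lower in let-7 than in miR-294 cells (0.49). Of 20 such ratios, 10 lost the call without 1 cell, and 2 of these turned direction. The latter were Acvr1b between mock and WT cells (1.65) and Acvr2a between miR-294 and WT cells (4.18, without the WT cell whose runs did not match). The others were Acvr1b (0.54) and Smad2 (1.88) between let-7 and mock cells, Akt2 (1.99), Smad2 (1.82), Dnmt3a (1.73) and Uhrf1 (0.51) between let-7 and miR-294 cells, and Dnmt3a (0.52) and Dnmt3b (0.52) between miR-294 and WT cells.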

How the data were processed

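Single ESCs were captured on a Fluidigm C1 device, and full-length cDNA was fragmented by transposon and sequenced without molecular identifiers or strand. Per the study's methods and the submitters' notes, the authors assigned reads to Gencode genes with RSEM 1.2.19. The authors deposited for each run the expected count of each gene without normalization, and its FPKM, scaled to length and depth. They had removed cells of low depth or diversity and transfected cells without lower target messages. The runs of 1 cell were added up, and sums were rounded to whole numbers. The levels rested on DESeq median-of-ratios size factors over the 863 genes counted in every cell, and FPKM was averaged over cells to compare genes. Ratios of levels carry exact conditional Poisson intervals (95%), covering counting error only, and shares exact binomial (Clopper-Pearson) intervals, which treat cells as independent draws. Depth ran from 513521 to 3979274 counts per cell. No test was made, since each condition is 1 sample. The 10 genes, the lists and the comparisons were chosen with earlier results of these data known. Named were all 10 genes, list genes past 2-fold with a summed count of at least 100 in the higher condition, and the 3 nearest genes of members counted in at least 50% of cells of each Dgcr8-/- condition. Gene positions and untranslated regions are from a later Gencode release on GRCm38, and miRNAs from RefSeq. Of 42493 identifiers, 41674 were paired with a symbol. The 2-fold call was run on simulated counts with the same spread among cells set for every gene, and the ratio intervals on Poisson counts. Neither setting was matched to the spread of the 10 genes, so that no result above rests on these runs. Alternatives were total-count and edgeR 4.0.16 TMM scaling, means over cells, deposited FPKM, the first run only, a 1.5-fold threshold and subsets of cells. Python 3.11.15, numpy 2.4.6, scipy 1.17.1 and pandas 2.3.3 were used.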

Additional observations from a re-analysis of the deposited data

How the results depend on the processing

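Of 50 log2 ratios (10 genes in 5 comparisons), 21 passed 2-fold. Under 15 alternatives 20 of these kept their direction and 16 stayed past 2-fold throughout. With each cell left out in turn, 11 of the 21 stayed past 2-fold and 18 kept their direction. The exceptions among the 15 alternatives were Mael in let-7 against mock and in mock against WT, Dazl in let-7 against miR-294 and in miR-294 against WT, and Dppa3 in miR-294 against WT. The last was reversed, at a log2 ratio of 0.11, with the highest cell of each gene and condition left out, whether by normalized count or by count. The number of genes past 2-fold between miR-294 and WT cells was 4, and 2 (Utf1 and Tex19.1) without the highest cells by either measure and with the first run of each cell. The cause of the change with the first run was not tested. All 77 other counts stayed within 1.5 times of the values given. Of the 29 ratios within 2-fold, 26 stayed so under every alternative. Alternatives that leave out the cell with the most counts of a gene or each cell in turn, the 2 cells with differing runs, the 3 cells with Zscan4 transcripts or the 2 cells without Pou5f1 counts, split the differing runs or add the sharing genes were chosen after seeing the data. Scaling moved the median log2 ratio of all genes between miR-294 and mock cells from -0.26 to -0.06 by total counts and -0.14 by TMM, with 692 genes higher and 2206 lower by size factors, 926 and 1720 by total counts. Between let-7 and miR-294 cells it moved from 0.45 to 0.18 by total counts. Without a filter on the mean count, the share of genes past 2-fold was 42.1% between miR-294 and mock cells, against 26%, and 44.3% between let-7 and mock cells, against 27.6%. Only 12 counts in WT cells for Mael, and counts in 2 to 12 cells for Dppa3, limit any ratio of these genes. No paired analysis was possible because the numbers that titles share are capture sites and runs, not cultures.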
